A study of Mus musculus with 4 samples.

Results

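The clustered replication-dependent histone genes supply the bulk histones of newly made chromatin. They were taken as the protein-coding genes of the table of values whose names begin with Hist1h, Hist2h, Hist3h or Hist4h, and 55 of the 25393 genes listed met that rule. On mm10, 47 of them lay in the Hist1 cluster on chromosome 13 (21715763 to 23764406), 5 in the Hist2 cluster on chromosome 3 (96219865 to 96263311), 2 in the Hist3 cluster on chromosome 11 (58948920 to 58956830) and 1, Hist4h4, on chromosome 6 (136801553 to 136804415). They comprised 5 genes for the linker histone H1, 12 for H2A, 16 for H2B, 10 for H3 and 12 for H4. The GENCODE M21 annotation of GRCm38 lists 67 such genes, and the 55 had the same start and end there. Of the 55, 50 have a single exon. The remaining 12 annotated genes, among them the testis histone genes Hist1h1t, Hist1h2aa and Hist1h2ba, had no row in the table used here.

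RNA-seq was done on primary astrocytes of C57BL/6 mice, 2 libraries labelled WT and 2 labelled KO (tet1-/-), the KO being described as constitutive, so not limited to astrocytes. Each isolation pooled the cortex and hippocampus of 2 pups at postnatal day 1, and the cells grew on PDL for about 7 days, were shaken at 260 rpm and were collected untreated 24 h later. The reads on genes numbered 18749610 to 22673555 per library, and 3 reads, taken as the detection floor, were worth 2.70 to 3.21 normalized counts. Genes above 0 numbered 22732 and 22550 in the WT libraries, 20830 in labelled KO replicate 1 and 22796 in labelled KO replicate 2. A normalized count here is a whole number of reads divided by 1 size factor per library, with no correction for gene length. Tet1, whose product oxidizes 5-methylcytosine in DNA, read 266 and 121 normalized counts in the WT libraries against 173 and 463 in the KO-labelled libraries (log2 fold change 0.66, standard error 0.65, adjusted p = 0.691 from limma). It was not lower, although counts over the whole gene cannot show whether the deleted exons were read. Every direction given below therefore rests on the label, and these are called the KO-labelled libraries. All 8 astrocyte markers were detected in each library, and their summed FPKM was 1472 and 1410 in the WT libraries, 2538 in labelled KO replicate 1 and 349 in labelled KO replicate 2. The high sum in labelled KO replicate 1 was Gfap (1871 FPKM) and Aldoc (289 FPKM). The markers Slc1a3, Aqp4, Sox9, Aldh1l1 and Slc1a2, 5 of the 8, lay below both WT libraries in both KO-labelled libraries. So did 25.4% of the 22094 genes tested. Microglia markers summed to 35.5 and 73.7 FPKM in the WT libraries and to 5.13 and 2.84 FPKM in the KO-labelled libraries, and markers of proliferating cells to 2.34 and 12.2 FPKM against 32.6 and 57.8 FPKM. The KO-labelled libraries thus differed from each other as well as from the WT libraries, and each result on the histone genes is given library by library. The study describes its repeats as biological, while the labels do not say that they came from separate cultures, and 2 libraries per genotype were analysed here. A p-value here measures only the spread between these libraries.

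In a dividing cell, each round of DNA replication needs a matching supply of new histones. H2A, H2B, H3 and H4 form the octamer that DNA wraps around, and H1 binds the linker DNA between octamers. The clustered genes have no introns in general and are switched on at the entry into S phase, through the coactivator NPAT at histone locus bodies. Their mRNAs are the known exception among animal mRNAs in that they usually end in a conserved stem-loop and not in a poly(A) tail. The stem-loop is bound by SLBP, and the U7 snRNP cuts the transcript just past it. Some of these genes can also give polyadenylated transcripts, chiefly in cells that have left the cell cycle. The methods state that mRNA was fragmented but not how it was captured, so how far the tail-less transcripts were retained was not tested.

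The stem-loop was read from the GENCODE M21 transcripts, as 6 paired bases on each side of a 4-base loop within 300 bases after the coding sequence. In 37 of the 55 genes an exact stem-loop was found, in 6 forms. The windows below show 1 gene for each form, 5′ to 3′, with the stem-loop in capitals, because it is the element that sets these transcripts apart from other mRNAs.
Hist1h1c: caaaaGGCTCTTTTCAGAGCCaccactc (chr13:23739507-23739534, plus strand)
Hist1h4h: ccaaaGGCCCTTTTCAGGGCCgcccaca (chr13:23531453-23531480, plus strand)
Hist1h2bb: ccaaaGGCTCTTTTAAGAGCCacccaca (chr13:23747198-23747225, plus strand)
Hist1h4i: ttaaaGGCCCTTTTTAGGGCCaccacaa (chr13:22040959-22040986, minus strand)
Hist2h2ac: aaaaaGGCTCTTTTTAGAGCCaccaaat (chr3:96220411-96220438, minus strand)
Hist1h4j: ctaaaGGTCCTTTTCAGGACCaccacat (chr13:21735432-21735459, plus strand)
The form in Hist1h1c stood in 21 genes of the classes H1, H2A, H2B and H3, and in 28 of the 21901 protein-coding genes of the annotation as a whole (0.128%). The form in Hist1h4h stood in 7 genes, all of them H4. The form in Hist1h2bb was shared by 5 H2B and H3 genes, that in Hist1h4i by 2 H4 genes, and those in Hist2h2ac and Hist1h4j by no other member. In the other 18 genes the transcript model ended before such an element or did not hold it. These include Hist1h2bc and Hist2h2be, whose models run on for 745 and 2195 bases after the coding sequence, and Hist1h4k, whose model ends with the coding sequence apart from 3 bases.

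Most histone genes were low in these astrocytes and a few were abundant. Mean normalized counts over the 4 libraries ranged from 0.492 to 5840 with a median of 13.6. A mean of at least 100 was reached by 10 genes and a mean of at least 10 by 30, while 6 genes stayed at or under 3 reads in every library. Hist1h1c, which encodes an H1 linker histone, alone held 55.4% of the normalized counts of all members, and Hist1h1c, Hist1h2bc and Hist2h2be together held 79.7%. Scaled for length, Hist1h1c had 178 FPKM on average, Hist1h2bc 80.5, Hist1h4i 25.9, Hist1h4h 19.8 and Hist2h2be 10.7. Member reads were 0.0513% and 0.0519% of all reads on genes in the WT libraries, 0.0802% in labelled KO replicate 1 and 0.0163% in labelled KO replicate 2. Between the WT libraries the median log2 difference was -0.01 over the 51 genes tested, with genes apart in both directions.

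**Figure D1:**
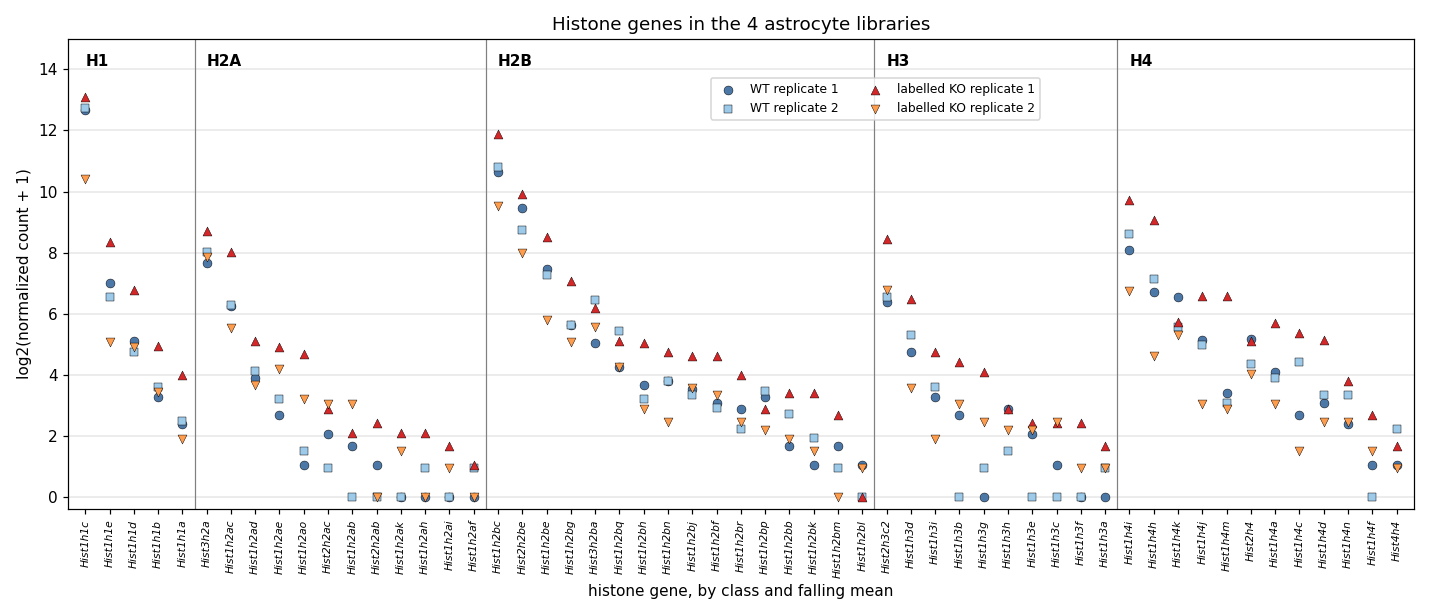
The 55 histone genes are placed along the horizontal axis by class and falling mean, with log2(normalized count + 1) on the vertical axis and 1 point for each of the 4 libraries. Labelled KO replicate 1 is the highest point in 42 of the 51 genes tested and labelled KO replicate 2 the lowest in 26, while for several H2A and H3 genes, such as Hist1h2ae and Hist2h3c2, both KO-labelled points lie above WT.

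The comparison of the KO-labelled libraries with WT asked whether histone gene expression differed between the genotypes. It was made with limma on log2(normalized count + 1), fitted to all 22094 genes whose mean reached 1, of which 51 were histone genes. No histone gene had an adjusted p under 0.05 (0% of all genes tested did), and the lowest was 0.303. At an unadjusted p under 0.05, 2 histone genes were higher in the KO-labelled libraries, where 4.54% of all genes were, and 0 were lower, where 9.18% of all genes were. edgeR and DESeq2 on the recovered reads likewise gave 0 histone genes with an adjusted p under 0.05 and 2 each at an unadjusted p under 0.05, against 12.4% and 12.6% of all genes. Hist1h2ao was among the 2 in each tool, and the other was Hist1h3g in limma and edgeR and Hist1h4m in DESeq2. For some low histone genes, Hist1h3g among them, DESeq2 gave no adjusted p, so they could not be called there. The log2 fold change was above 0 for 34 of the 51 genes (46.3% of all genes), with a median of 0.47 beside -0.07 for all genes tested. The median was 0.43 with the genes at 0 in both WT libraries set to the bound that 3 reads allow. In such bulk samples fewer cells making a transcript and less of it per cell cannot be told apart.

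The positive median came from labelled KO replicate 1. Relative to the WT mean, the median histone gene stood 1.45 higher on the log2 scale in labelled KO replicate 1 and 0.47 lower (-0.47) in labelled KO replicate 2. Without labelled KO replicate 2 the median log2 fold change was 1.45 and 14 genes were higher at an unadjusted p under 0.05, where 4.1% of all genes were in that fit, and 0 were lower (9.28% of all genes). Without labelled KO replicate 1 the median was -0.47, with 1 gene higher (8.24% of all genes in that fit) and 7 lower (13.7% of all genes). With 2 libraries per group, an exact two-sided permutation test of a single value cannot give a p below 0.333.

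Among the H1 genes, Hist1h1c (chromosome 13, 23738808 to 23740367, plus strand) had normalized counts of 6454 and 6882 in the WT libraries, 8671 in labelled KO replicate 1 and 1353 in labelled KO replicate 2. Labelled KO replicate 1 was 1.3-fold above the WT mean and the other 4.93-fold below it, so the groups overlapped (log2 fold change -0.96, standard error 0.86, adjusted p = 0.651 from limma). Hist1h1e, another somatic H1 gene, showed the same order at 127 and 92.0 in WT against 323 and 32.4. Its annotated span overlaps that of Hist1h2be on the same strand, so reads of these neighbours may be mixed. Hist1h1b had 8.54 and 11.0 in WT, 29.97 in labelled KO replicate 1 and 9.92 in labelled KO replicate 2. Hist1h1d had 33.1 and 25.8 against 109 and 28.8, so that only labelled KO replicate 1 left the WT range for these last genes. H1 genes summed to 211 and 215 FPKM in WT, 262 in labelled KO replicate 1 and 44.8 in labelled KO replicate 2.

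The H2A genes were low except for Hist3h2a, in the small Hist3 cluster, with 203 and 261 normalized counts in WT against 420 and 229 in the KO-labelled libraries (log2 fold change 0.43, standard error 0.44, adjusted p = 0.703 from limma). Its span overlaps Trim17 on the same strand. Hist1h2ac had 75.8 and 76.3 in WT, 259 in labelled KO replicate 1 and 45.1 in labelled KO replicate 2, and Hist1h2ad had 13.9 and 16.6 against 33.2 and 11.7. Hist1h2ae differed from these in that both KO-labelled libraries lay above both WT libraries, at 28.9 and 17.1 against 5.33 and 8.28 (log2 fold change 1.60, standard error 0.72, adjusted p = 0.409 from limma). In the Hist2 cluster, Hist2h2ac had 3.20 and 0.920 in WT against 6.42 and 7.21 in the KO-labelled libraries, while Hist2h2ab stayed at or under 4.28 in each library. Hist1h2ao, named after its values were seen as 1 of the 2 genes at an unadjusted p under 0.05, had 1.07 and 1.84 in WT against 24.6 and 8.11 in the KO-labelled libraries (log2 fold change 2.66, adjusted p = 0.303 from limma). H2A was the class with the smallest distance between the KO-labelled libraries, at 22.7 and 11.0 summed FPKM beside 8.60 and 9.75 in WT.

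Hist1h2bc led the H2B genes, with 1578 and 1789 normalized counts in WT, 3793 in labelled KO replicate 1 and 730.1 in labelled KO replicate 2 (chromosome 13, 23684199 to 23692908, plus strand). The values bracketed WT on both sides, and limma gave a log2 fold change of -0.01 with a standard error of 0.77 (adjusted p = 0.997). Hist2h2be showed a like order, at 711 and 426 in WT against 968 and 253 (log2 fold change -0.15, adjusted p = 0.944 from limma), and none of its sequence was shared with another gene. Hist1h2bg had 48.0 and 48.7 in WT against 134 and 32.4, and Hist1h2be 175 and 152 against 362 and 55.0. Hist3h2ba, with 32.0 and 85.5 in WT against 71.7 and 46.0, lay within the WT range in both libraries. Hist1h2bp, named after its values were seen, was the only member of the 51 with both KO-labelled libraries under the WT values, at 6.42 and 3.61 against 8.54 and 10.1 (log2 fold change -0.82, adjusted p = 0.651 from limma).

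The H3 genes held little of the signal, 7.63 and 7.52 summed FPKM in WT, 25.7 in labelled KO replicate 1 and 8.17 in labelled KO replicate 2. Hist2h3c2, the leading H3 gene (chromosome 3, 96238108 to 96239127, minus strand), had 83.2 and 92.9 normalized counts in WT against 346 and 109 in the KO-labelled libraries. Both of the latter lay above WT, with limma giving a log2 fold change of 1.14 and a standard error of 0.64 (adjusted p = 0.492). Hist1h3d had 25.6 and 38.6 in WT against 87.8 and 10.8, and Hist1h3i 8.54 and 11.0 against 25.7 and 2.70. Hist1h3g, also named after its values were seen, had 0 and 0.920 in WT, both below the floor, and 16.1 and 4.51 in the KO-labelled libraries (log2 fold change 2.81, adjusted p = 0.310 from limma). Like Hist1h2ao, it belongs to the genes of low count, and its fitted change depends on the pseudocount.

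The H4 genes stood furthest apart between the KO-labelled libraries. Hist1h4h (chromosome 13, 23531050 to 23531519, plus strand) had 102 and 138 normalized counts in WT, 540.5 in labelled KO replicate 1 and 23.4 in labelled KO replicate 2. The difference between the KO-labelled libraries was 4.47 on the log2 scale, a 23.1-fold difference and the largest of the 51 genes, while the log2 fold change between the groups was -0.06 (standard error 1.43, adjusted p = 0.991 from limma). Hist1h4i (chromosome 13, 22040636 to 22041362, minus strand) ran the same way, from 269 and 393 in WT to 837 and 106 (log2 fold change -0.12, standard error 0.97, adjusted p = 0.970 from limma). Hist1h4j had 34.1 and 30.4 in WT against 94.2 and 7.21. Hist1h4m had 9.60 and 7.36 in WT, 95.3 in labelled KO replicate 1, 11.2-fold above the WT mean, and 6.31 in labelled KO replicate 2 (log2 fold change 1.495, standard error 1.31, adjusted p = 0.644 from limma). Hist1h4k, by contrast, had 91.8 and 46.0 in WT against 52.4 and 38.8 in the KO-labelled libraries, a 1.35-fold difference between the latter. Hist2h4 had 35.2 and 19.3 against 33.2 and 15.3, and Hist4h4 stayed at or under 3.68 in each library. H4 transcripts summed to 51.4 and 54.3 FPKM in WT, 138 in labelled KO replicate 1 and 19.3 in labelled KO replicate 2, a 7.17-fold difference between the KO-labelled libraries.

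**Figure D2:**
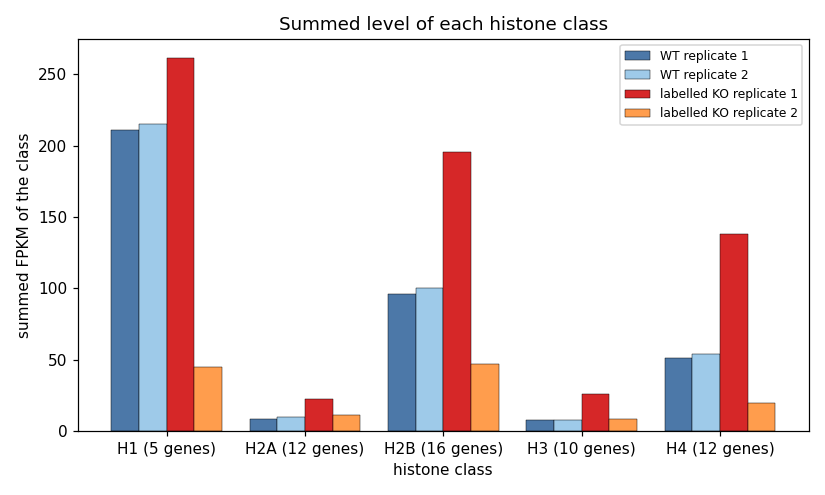
Bars give the summed FPKM of each histone class in each library, with no error bars since each bar is 1 library. In every class labelled KO replicate 1 is the highest, and H1, H2B and H4 are lowest in labelled KO replicate 2, where H4 stands at 19.3 FPKM beside 138 in the other library labelled KO.

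Summed over all 55 genes, the level was 375 and 387 FPKM in WT, a mean of 381 ± 8.49 (SD, n = 2), and 644 and 131 FPKM in the KO-labelled libraries, a mean of 387 ± 363 (SD, n = 2). The means of the groups were alike while the KO-labelled libraries differed 4.93-fold from each other, and without Hist1h1c they still differed 4.49-fold. The balance of the classes differed too. H1 made up 56.3% and 55.6% of the summed FPKM in WT, 40.6% in labelled KO replicate 1 and 34.3% in labelled KO replicate 2. The ratio of H1 to the core histones was 1.29 and 1.25 in WT against 0.684 and 0.523 in the KO-labelled libraries, so for this ratio both KO-labelled libraries lay on the same side of WT. It rested mainly on Hist1h1c, which was 1.3-fold above the WT mean in labelled KO replicate 1 where Hist1h1e was 2.95-fold above it.

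Gene by gene, the order of the 4 libraries was uneven. Labelled KO replicate 1 lay above and labelled KO replicate 2 below both WT libraries in 21 of the 51 genes, against 9.22% of all genes tested, and the reverse order occurred in 0 histone genes, against 8.49% of all genes. Both KO-labelled libraries lay above both WT libraries in 14 genes (22.5% of all genes) and below them in 1 (25.4% of all genes). Some of the 14, such as Hist1h2ak at 0 in both WT libraries, passed the filter only through their KO-labelled values. Labelled KO replicate 1 was the highest of the 4 in 42 genes (23% of all genes), and labelled KO replicate 2 the lowest in 26 (29.4% of all genes). The count was higher in labelled KO replicate 1 than in labelled KO replicate 2 for 48 genes (45.8% of all genes), and by over 2-fold on the scale of log2(normalized count + 1) for 38 (16.6% of all genes), while 0 were over 2-fold lower (21.7% of all genes). The WT libraries were over 2-fold apart in 13 histone genes (23.7% of all genes). The genes were selected by name and not by value, but neighbouring histone genes share sequence and reads and are not independent.

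**Figure D3:**
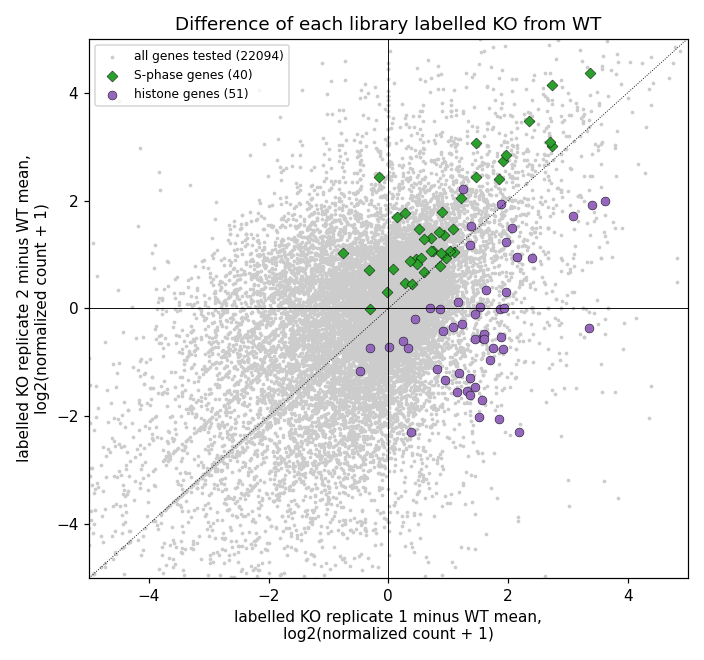
Each point is a gene, with its difference from the WT mean on the scale of log2(normalized count + 1) in labelled KO replicate 1 on the horizontal axis and in labelled KO replicate 2 on the vertical axis, for all genes tested (grey), S-phase genes (green) and histone genes (purple). Of the 51 histone genes 48 lie right of the dotted line of equal difference and of the 40 S-phase genes 37 lie left of it, and 283 grey points, none of them a histone gene, fall outside the axes.

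The pattern differed with the level of the gene. At a mean of 100 or more stood 10 genes. In 8 of them labelled KO replicate 1 lay above and labelled KO replicate 2 below both WT libraries. This order held in 11.8% of all genes of that level. The median difference between the KO-labelled libraries was 2.59 on the log2 scale for the 10 genes (0.02 for all genes of that level). Among the 20 genes from 10 to 100, that order held in 11 (6.77% of all genes of that level). Their median difference was 1.95 (-0.17 for all genes of that level). Among the 21 genes from 1 to 10 it held in 2 (5.99% of all genes of that level). In 10 of them both KO-labelled libraries lay above both WT libraries (12.9% of all genes of that level). Among those 10, Hist1h2ak, Hist1h3f, Hist1h3g, Hist1h3c and Hist1h4f had WT means of 0, 0, 0.46, 0.53 and 0.53. They passed the filter only through the KO-labelled libraries, which favours that order. The median difference of the 21 genes was 1.38 (-0.43 for all genes of that level). The median log2 fold change was -0.06, 0.37 and 0.97 in these 3 ranges, so the positive median over all 51 genes rested on the low ones. A pseudocount of 1 narrows the differences of such genes.

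The order of the libraries differed between kinds of transcript model. The 17 genes whose model runs over 200 bases past the stem-loop, the 20 whose model ends within 200 bases of it and the 18 with no stem-loop in the model had median differences between the KO-labelled libraries of 2.50, 1.33 and 1.93. The kinds also differed in level, with a median of the mean normalized counts of 41.5, 7.96 and 7.02. The part of level in the differences between these kinds was not tested. Labelled KO replicate 1 was the highest library in 15 of 17, 14 of 19 and 13 of 15 of those tested (23% of all genes). It lay above and labelled KO replicate 2 below both WT libraries in 10, 5 and 6 of them (9.22% of all genes). Both KO-labelled libraries lay above both WT libraries in 3, 9 and 2 of them (22.5% of all genes). In the short models the median of labelled KO replicate 2 was thus not below WT, with a median difference from the WT mean of 0.01 beside -0.74 in the long ones. The long models held most of the reads, with 247 and 259 FPKM in WT against 358 and 65.4 in the KO-labelled libraries, and include Hist1h1c, whose model goes on for 840 bases past its stem-loop. The short models, such as that of Hist1h4h with 46 bases past the stem-loop, summed to 25.05 and 31.9 FPKM in WT against 96.5 and 18.6 in the KO-labelled libraries.

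Near-identical copies limit what can be said of single genes. In 25 of the 55 genes at least 50% of the 50-base words of the transcripts also occur in another gene, and how the authors' counting treated reads that match several genes is not given in the sources used here. The 29 tested genes below that share had a median difference between the KO-labelled libraries of 2.11 and a median log2 fold change of 0.13, and the 22 at or above it had 1.40 and 0.82. Hist1h4m shared 89.8% of its words and Hist1h4k 71.5%, whereas Hist1h1c shared 8.5% and Hist2h2be 0%. Histone genes are also short, with a median length of 618 bases beside 3216.5 for all genes tested. Other protein-coding genes from 500 to 1000 bases long were over 2-fold higher in labelled KO replicate 1 than in labelled KO replicate 2 in 24.5% of cases and those of 8000 bases or more in 11.1%. The median difference of those from 500 to 1000 bases was 0.16, beside 1.51 for the 18 histone genes of that length. The part of length in the result was not tested further.

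The genes share promoter elements that their selection did not use. RefSeq promoters of GRCm38.p6 (300 bases, 250 of them before the start) were matched for 50 of the 55 genes. The TATA box, searched as TATAAA on both strands, was in 62% of them and in 15.7% of the 27025 RefSeq genes. The CCAAT box, searched as CCAAT on both strands, was in 84% beside 41.1%, that is in all 39 matched genes of H1, H2A, H2B and H3 and in 3 of 11 of H4. The octamer bound by OCT1, searched as ATTTGCAT on both strands, was in 22% beside 1.97%, in 6 of 12 H2A and 5 of 14 H2B genes and in 0 genes of the other classes. The 250 bases before the start are shown for an H2B gene that holds all 3 motifs, which are in capitals, and for the H4 gene with the largest difference between the KO-labelled libraries, which holds none in this stretch.
Hist1h2bg: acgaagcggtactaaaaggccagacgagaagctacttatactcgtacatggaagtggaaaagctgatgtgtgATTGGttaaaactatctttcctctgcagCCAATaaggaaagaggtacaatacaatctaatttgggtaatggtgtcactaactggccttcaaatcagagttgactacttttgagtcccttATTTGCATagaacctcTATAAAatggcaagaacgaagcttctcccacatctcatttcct (chr13:23571150-23571399, plus strand)
Hist1h4h: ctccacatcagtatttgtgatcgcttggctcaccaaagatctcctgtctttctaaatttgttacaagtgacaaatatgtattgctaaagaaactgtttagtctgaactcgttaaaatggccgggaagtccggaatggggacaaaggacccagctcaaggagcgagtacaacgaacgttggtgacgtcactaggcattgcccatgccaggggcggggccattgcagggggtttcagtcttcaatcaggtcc (chr13:23530794-23531043, plus strand)
Labelled KO replicate 1 lay above and labelled KO replicate 2 below both WT libraries in 9.22% of all genes tested. Among the tested histone genes with a matched promoter, this order held in 13 of 31 with and 6 of 16 without the TATA box. For the CCAAT box it held in 15 of 39 with and 4 of 8 without. For the octamer it held in 4 of 11 with and 15 of 36 without. Many H2A and H2B genes are paired head to head across a shared promoter. Among the members 9 head-to-head neighbours were found, 8 of H2A with H2B, 175 to 301 bases apart, and 1 of H2B with H3 (Hist1h2bh and Hist1h3f), 659 bases apart. Hist1h2ac and Hist1h2bc, 250 bases apart, differed between the KO-labelled libraries by 2.50 and 2.38 on the log2 scale. Hist1h2bf and Hist1h2ad, 184 bases apart, differed by 1.29 and 1.43. Hist1h2ae and Hist1h2bg, 175 bases apart, differed by 0.72 and 2.01, and Hist2h2ac and Hist2h2be, 238 bases apart, by -0.15 and 1.93, so neighbours were not always alike. Hist2h2ac had only 3 and 1 reads in WT and 6 and 8 in the KO-labelled libraries, so its difference lies near the floor.

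Genes that make and trim histone transcripts did not, as a list, follow the order of the histone genes. Of the 26 genes listed for histone gene transcription and RNA processing, 23 had a row. Labelled KO replicate 1 lay above and labelled KO replicate 2 below both WT libraries in 2 of them (9.22% of all genes), and the reverse order occurred in 5 (8.49% of all genes). In the KO-labelled libraries 15 were above WT (46.3% of all genes) and 8 below it, with a median log2 fold change of 0.19. An adjusted p under 0.05 was reached by 0 in limma, edgeR or DESeq2 (DESeq2 called 1.31% of all genes higher and 3.68% lower). At an unadjusted p under 0.05 in limma, 1 was higher (4.54% of all genes) and 0 were lower (9.18% of all genes). Slbp, the stem-loop binding protein, had 466 and 486 normalized counts in WT against 628 and 655 in the KO-labelled libraries (log2 fold change 0.43, standard error 0.30, adjusted p = 0.569 from limma). Npat, the coactivator of histone genes, had 744 and 280 in WT, 201 in labelled KO replicate 1 and 772 in labelled KO replicate 2, and Casp8ap2, another component of histone locus bodies, had 297 and 90.1 in WT, 80.3 in labelled KO replicate 1 and 431 in labelled KO replicate 2. Both were lowest in labelled KO replicate 1 and highest in labelled KO replicate 2, an order that 5 of the 23 genes had (8.49% of all genes). A relation of either gene to the histone values was not tested. Lsm10 and Lsm11, the U7-specific ring proteins, had 395 and 481 against 418 and 296, and 81.1 and 82.8 against 132 and 166. The median difference between the KO-labelled libraries was -0.22 for this list and 1.63 for the histone genes.

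Replication-independent histone variants are for the most part made throughout the cell cycle as polyadenylated mRNAs, H2afx being known to give a stem-loop mRNA as well. Their median difference between the KO-labelled libraries was 0.14 on the log2 scale, beside 1.63 for the clustered genes. Of the 11 with a row, 8 were higher (46.3% of all genes) and 3 lower, with a median log2 fold change of 0.45. At an unadjusted p under 0.05 in limma, 2 were higher (4.54% of all genes). An adjusted p under 0.05 was reached by 0 in any of the 3 tools (DESeq2 called 1.31% of all genes higher and 3.68% lower). Their summed level was 483 and 627 FPKM in WT against 682 and 586 in the KO-labelled libraries, so the clustered genes stood at 0.776 and 0.617 of the variants in WT, 0.945 in labelled KO replicate 1 and 0.223 in labelled KO replicate 2. H3f3b, 1 of the genes for H3.3, had 6186 and 8603 normalized counts in WT against 9516 and 11860 in the KO-labelled libraries (log2 fold change 0.54, adjusted p = 0.522 from limma). H3f3a, the other, had 2712 and 3775 against 5540.0 and 2932, and H2afz, which encodes H2A.Z, 1462 and 2074 against 2496 and 2271. H2afx, the variant phosphorylated at DNA breaks, had 438 and 631 against 1024 and 1306 (log2 fold change 1.14, standard error 0.34, adjusted p = 0.282 from limma). H1f0, the linker histone of resting cells, had 6000 and 7883 against 7172 and 3728 (log2 fold change -0.41, adjusted p = 0.696 from limma), and it shared the low value in labelled KO replicate 2. H2afv, another H2A.Z gene, had 2072 and 2672 in WT, 3022 in labelled KO replicate 1 and 917 in labelled KO replicate 2. H1fx, another linker histone gene and named after its values were seen, had 265 and 266 against 494 and 139. Thus 2 of the 11 variants had the order seen in 21 of the 51 clustered genes (9.22% of all genes).

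The chaperones that carry histones to DNA were mostly higher in the KO-labelled libraries, 18 of 22 (46.3% of all genes) with a median log2 fold change of 0.37. At an unadjusted p under 0.05 in limma 2 were higher (4.54% of all genes), 0 had an adjusted p under 0.05 there or in edgeR, and 1 did in DESeq2 (1.31% of all genes were called higher). That gene was Nasp, a carrier of H3 and H4, with 270 and 324 normalized counts in WT against 687 and 1482 in the KO-labelled libraries (log2 fold change 1.77, standard error 0.45, adjusted p = 0.236 from limma and 0.0173 from DESeq2). Chaf1a, the large subunit of the assembly factor CAF-1, had 75.8 and 181 against 275 and 489 (log2 fold change 1.64, adjusted p = 0.335 from limma). For both genes labelled KO replicate 2 was the highest library, unlike the histone genes whose products they carry. Atrx, which with Daxx deposits H3.3, had 2740.0 and 763 in WT, 476 in labelled KO replicate 1 and 2892 in labelled KO replicate 2.

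The S-phase genes, which are expressed at the same point of the cell cycle as the clustered histone genes, lay above both WT libraries in both KO-labelled libraries in 30 of 40 genes (22.5% of all genes). Of these 40 genes, 39 were higher (46.3% of all genes) and 1, E2f1, lower, with a median log2 fold change of 1.01 over the list. At an unadjusted p under 0.05, 18 were higher (4.54% of all genes) and 0 lower (9.18% of all genes), 0 had an adjusted p under 0.05 in limma or edgeR, and 5 were called higher in DESeq2 (1.31% of all genes). Pcna, the replication clamp, had 816 and 1600.0 normalized counts in WT against 2181 and 2936 in the KO-labelled libraries (log2 fold change 1.15, standard error 0.42, adjusted p = 0.345 from limma). Mcm2, a subunit of the replicative helicase, had 329 and 525 against 776 and 1431 (log2 fold change 1.34, adjusted p = 0.313 from limma). Rrm2, the S-phase subunit of ribonucleotide reductase, had 134 and 323 against 788 and 1389 (log2 fold change 2.32, adjusted p = 0.218 from limma and 0.00809 from DESeq2). All 3 were highest in labelled KO replicate 2. Summed FPKM of the S-phase genes was 95.3 and 149 in WT, 187 in labelled KO replicate 1 and 300 in labelled KO replicate 2. The ratio of the clustered histone genes to the S-phase genes was therefore 3.93 and 2.60 in WT, 3.44 in labelled KO replicate 1 and 0.436 in labelled KO replicate 2.

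Markers of proliferating cells ran with the S-phase genes. All 8 were higher at an unadjusted p under 0.05 in limma, where 4.54% of all genes were. In DESeq2 6 of them had an adjusted p under 0.05 (1.31% of all genes were called higher), and 0 did in limma or edgeR. The WT libraries were themselves over 2-fold apart in all 8 (23.7% of all genes). Mki67 had 10.7 and 80.0 normalized counts in WT against 203 and 1091 in the KO-labelled libraries, and Top2a, the topoisomerase of dividing cells, had 88.6 and 442 against 818 and 2405. The median difference between the KO-labelled libraries was -0.32 for these markers and -0.53 for the S-phase genes, against 1.63 for the histone genes. Astrocyte markers had a median difference between the KO-labelled libraries of 1.99, but relative to the WT mean their median was -0.33 in labelled KO replicate 1, where that of the histone genes was 1.45. Of the 8 markers, 3 (Gfap, Aldoc and S100b) had the order seen in 21 of the 51 histone genes (9.22% of all genes). The other 5 were below both WT libraries in both KO-labelled libraries (25.4% of all genes). The median log2 fold change over the list was -0.78. The ratio of the summed FPKM of the histone genes to that of the astrocyte markers was 0.255 and 0.274 in WT against 0.254 and 0.374 in the KO-labelled libraries, and without Gfap 0.478 and 0.600 against 0.965 and 0.561. No relation between these measures was tested over the 4 libraries, and the part of cell makeup, of RNA quality or of transcript capture in the histone values was not tested.

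**Figure D4:**
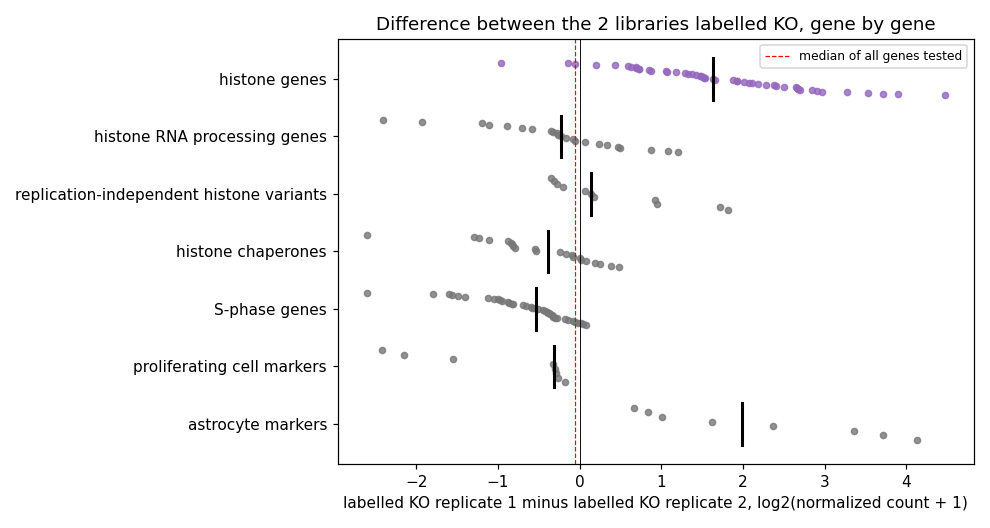
For each gene list, points give the difference between the KO-labelled libraries, replicate 1 minus replicate 2, on the scale of log2(normalized count + 1), with black bars at the list medians and a dashed line at the median of all genes tested (-0.06). The histone genes centre on 1.63 and the astrocyte markers on 1.99, while the S-phase genes centre on -0.53 and the markers of proliferating cells on -0.32.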

How the data were processed

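RNA-seq libraries of primary mouse astrocytes (2 labelled WT, 2 labelled KO) were compared. The authors filtered paired-end reads and aligned them to mm10, and the aligner, counter, strand setting and annotation are not given in the sources used here. Per the file headers the deposited values are FPKM, but they are a signal of whole reads divided by 1 size factor per library (100% of values whole within 0.01), so counts of reads were recovered. The authors also deposited log2 fold changes, p-values and gene positions, and their test results were not used. The design had allowed for FPKM, and its test was run on the normalized counts.

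Genes with a mean of at least 1 were compared with limma 3.58.1 (R 4.3.3, lmFit and eBayes with a trend) on log2(normalized count + 1), where low genes appear to differ less than they do, with Benjamini-Hochberg adjustment. The recovered reads also went into edgeR 4.0.16 (quasi-likelihood) and DESeq2 1.42.0. FPKM values came from those reads, the deposited lengths and library totals, which were 18749610 and 22673555 reads in WT against 20702980 and 22403163 in the KO-labelled libraries. The fits were tested on simulated data. Figures and tables used Python 3.11.15, pandas 2.3.3, numpy 2.4.6 and matplotlib 3.10.9. Stem-loops and word sharing came from GENCODE M21 transcripts, promoters from RefSeq.

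Members and gene lists were chosen with earlier results of these data known. Named were Tet1, the 3 members of each class highest in FPKM, all Hist2, Hist3 and Hist4 members, and the 5 most positive and 5 most negative log2 fold changes at a mean of at least 10. From the other lists, fixed genes such as Slbp and Pcna and genes from the top by FPKM or the extremes of fold change were eligible. Alternatives were pseudocount, filters, quantile or equal-sum scaling, FPKM, no trend, a replicate block, each library left out, edgeR and DESeq2. Limits to members with a mean of at least 10 or under 50% shared words were added after seeing the data.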

Additional observations from a re-analysis of the deposited data

How the results depend on the processing

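In limma, 0 histone genes had an adjusted p under 0.05 under every alternative run, edgeR and DESeq2 included. The count higher at an unadjusted p under 0.05, 2 in the main comparison, was 4 with no filter, 6 with quantile normalization, log2(FPKM + 1) or no variance trend, and 0 among members with a mean of at least 10 or under 50% shared words. Leaving out 1 library gave 0 to 14 higher, 0 to 7 lower and a median log2 fold change of -0.47 to 1.45, the extremes coming from the KO-labelled libraries. The lone library of a group was then assumed to vary like the others. Over the other settings that median was 0.06 to 0.94. On log2(FPKM + 1) the median difference between the KO-labelled libraries was 0.654 and 17 genes were over 2-fold higher in replicate 1, since low FPKM values shrink against the pseudocount. DESeq2 called 1 chaperone and 5 S-phase genes that limma did not.

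Directions turned for Hist1h2bc (edgeR 0.40, DESeq2 0.43), Hist1h4i (quantile 0.06, edgeR 0.49, DESeq2 0.51), Hist1h4h (quantile 0.30, log2(FPKM + 1) 0.02, edgeR 1.20, DESeq2 1.23) and Hist2h2be (edgeR 0.06, DESeq2 0.10), and the cause was not tested. Leaving out single libraries, the log2 fold change ran from -0.05 to 1.36 for Tet1, -2.30 to 0.38 for Hist1h1c, -1.20 to 1.17 for Hist1h2bc, -1.60 to 1.36 for Hist1h4i, -2.29 to 2.18 for Hist1h4h, -0.36 to 3.35 for Hist1h4m, -1.12 to 0.81 for Hist2h2be, -0.01 to 0.86 for Hist3h2a, -1.18 to 0.76 for Npat, -1.02 to 1.39 for Casp8ap2 and -0.88 to 0.06 for H1f0. The median over all genes tested was -0.07 and became 0.08 after quantile normalization.

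Replicate numbers are shared between the groups but not described as a pairing. Same-numbered libraries did not deviate together, with r = -0.08 across all genes tested and r = -0.305 across the histone genes. With a replicate block, 0 histone genes had an adjusted p under 0.05, 3 were higher at an unadjusted p under 0.05 and the median log2 fold change was 0.47. Depth limits the 6 genes at or under 3 reads in every library, for which no difference was detectable. Read totals, floors and shares of reads are single values for each library, given without a measure of the spread between libraries.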
